A study of Mus musculus with 11 samples.

Results

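The genes described here are the glucocorticoid receptor gene Nr3c1, 3 genes that glucocorticoids switch on in many cell types (Tsc22d3, Fkbp5 and Sgk1) and 6 genes of the circadian clock (Per1, Per2, Cry1, Clock, Nr1d1 and Dbp). They were taken by gene symbol from a count table of 55486 genes, and all 10 were found, each as 1 row. The RNA came from eosinophils of mouse blood and was sequenced in 11 libraries, 1 per mouse, by Smart-seq2, a protocol that copies full-length transcripts from small amounts of RNA. The mice were of the FVB/N genotype and carried metastases of mammary tumours, and blood was drawn from the heart on day 21 of treatment. The treated group of 7 mice received cisplatin, a DNA-crosslinking drug, with antibodies to the checkpoint receptors PD1 and CTLA4, and the other 4 mice received control antibody. The sort gate for eosinophils took live cells positive for CD45, CD11b and F4/80 and negative for CD3, low in Ly6g and high in side scatter. The sources used here give neither the purity of the sort, nor the age of the mice, nor the hour of the day at which blood was drawn.

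Glucocorticoids are steroid hormones of the adrenal gland. Their receptor, held in the cytosol by chaperones of the HSP90 family, moves to the nucleus when it binds hormone and activates or represses genes there. Blood eosinophils fall in number when glucocorticoids rise, and steroid drugs are a mainstay of treatment in eosinophilic disease. The circadian clock is a feedback loop in which CLOCK and its partner BMAL1 (gene Arntl) activate the Per and Cry genes, whose proteins in turn repress CLOCK and BMAL1. The 2 systems are linked, since adrenal hormone release follows the time of day and Per1 is itself a glucocorticoid target in many cells.

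Promoter sequences were searched for DNA elements of both systems. They were taken from RefSeq (build GRCm38.p6), which gave 18 windows for 8 of the 10 genes, each from 250 bases before to 50 bases after a transcript start. Nr3c1 and Per2 had no entry. The 4 stretches below are shown because they hold an exact E-box, CACGTG, the element that CLOCK and BMAL1 bind, or an exact glucocorticoid response element (AGAACA, any 3 bases, then TGTTCT), the palindrome that the receptor binds. Each runs 5′ to 3′ along the strand of its gene, and capitals mark these motifs.
Sgk1: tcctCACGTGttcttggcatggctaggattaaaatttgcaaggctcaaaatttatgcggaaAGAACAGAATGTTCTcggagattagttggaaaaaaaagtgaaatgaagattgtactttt
Per1: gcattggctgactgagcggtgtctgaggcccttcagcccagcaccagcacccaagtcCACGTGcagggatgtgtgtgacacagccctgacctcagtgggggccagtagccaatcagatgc
Cry1: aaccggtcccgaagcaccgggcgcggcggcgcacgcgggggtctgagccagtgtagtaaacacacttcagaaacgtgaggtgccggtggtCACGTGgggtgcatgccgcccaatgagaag
Fkbp5: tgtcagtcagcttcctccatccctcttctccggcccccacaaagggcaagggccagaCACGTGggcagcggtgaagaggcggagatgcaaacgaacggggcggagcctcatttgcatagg

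The Sgk1 stretch lies at chr10:21993640-21993759 on the plus strand, before the fifth of 6 transcript starts, and holds both motifs. Its E-box begins at position -246 and its glucocorticoid response element at position -189, counted back from the start. The Per1 stretch is chr11:69098726-69098845 on the plus strand, with the E-box at -166. That of Cry1 is chr10:85185085-85185204 on the minus strand, with the E-box at -60. That of Fkbp5 is chr17:28486256-28486375 on the minus strand, with the E-box at -169. Over all 32851 windows in the table, on both strands, 7.15% held the E-box, against 4 of the 18 windows here. The full glucocorticoid response element was in 0.00913% of all windows and in 1 of these 18, the Sgk1 window printed above. Its shorter site AGAACA, which is part of the full element and in Sgk1 also overlaps the E-box, was in 19.0% of all windows and in 4 of the 18, in Tsc22d3 and Sgk1. The ROR and REV-ERB element AGGTCA was in 16.3% of all windows and in 4 of the 18, in Sgk1, Per1 and Clock. The D-box TTATGTAA, bound by DBP, and the cAMP response element TGACGTCA had no exact match in the 18 windows. A match describes letters in the window and does not show binding.

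Library totals ran from 5356118 to 8016658 counts in treated and from 3733156 to 6721060 in control libraries. Control 3 and control 4 stood apart, with haemoglobin genes at 28.2% and 20.1% of counts against 0.165% to 4.42% elsewhere, and with the fewest detected genes. Eosinophil markers (9 genes, among them Siglecf, Ccr3 and Epx) summed to 2680 to 8840 CPM (counts scaled to a common library total) in treated and 3790 to 8460 CPM in control libraries. Markers of other cells were present too, and none of the marker genes passed the test described below. B cell markers (13 genes) summed to 1410 to 6900 and 544 to 3350 CPM, monocyte and macrophage markers (12 genes) to 2220 to 19000 and 1040 to 13100 CPM, and neutrophil markers (10 genes) to 5490 to 13500 and 6180 to 12100 CPM. Platelet markers (9 genes) summed to 800 to 3280 CPM in treated and 169 to 7770 CPM in control libraries, with the highest sums, 7770 and 6660 CPM, in control 3 and control 4. The log2 fold change was above 0 for 12 of 13 B cell markers (median 1.71) and 9 of 12 monocyte and macrophage markers (median 0.57). It was above 0 for 0 of 8 tested neutrophil markers (median -1.3), 0 of 9 platelet markers (median -1.9) and 0 of 9 erythroid markers (median -2.69). Of the 9 eosinophil markers it was above 0 for 1 (median -0.19). T cell markers (10 genes) summed to 33.8 to 489 and 35.9 to 140 CPM, and the log2 fold change was above 0 for 3 of 5 tested (median 1.51). Of the 10, Cd3e, Cd8a, Il7r and Bcl11b had no counts in any control, and Il7r had counts in 1 library only, treated 1 (2.35 CPM). The part of these cells in the results below was not tested. Every treated library has an identifier starting with 19 and every control one starting with 20. If these digits mark a batch, batch and treatment cannot be told apart. The letters after the digits are VIS in treated 2 to treated 7, and KDV in treated 1 and every control. What the letters mark is not stated.

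No gene of the set passed the test between groups. Counts were tested with edgeR's quasi-likelihood test over 11389 genes with Benjamini-Hochberg adjustment, which called 0% of genes higher and 0% lower (threshold 0.05 on the adjusted p). At an unadjusted p under 0.05 it had 421 genes higher and 356 lower. Of the 10 genes, 9 had enough counts to be tested, and 0 passed, with a smallest adjusted p of 0.719 (edgeR). On simulated data the same test recovered 5 of 50 genes changed by a log2 fold change of 1. Every estimate of the set was smaller in size than that, so a gene that did not pass may still differ. The unadjusted p was under 0.05 for 1 of 9, Nr3c1, which was higher in treated libraries, against 6.82% of all genes tested (3.7% higher and 3.13% lower). DESeq2 called 0.466% of its tested genes higher and 0.171% lower, and none of these 10. Log2 fold changes, here always treated minus control, were above 0 for 6 and below 0 for 3, with a median of 0.034 against 0.0278 over all genes tested. No member had groups that did not overlap, which 0.94% of all genes tested had (0.509% higher and 0.43% lower). Levels below are CPM after TMM scaling in edgeR. In RNA from sorted cells in bulk, fewer cells that express a gene and less RNA per cell cannot be told apart.

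**Figure D1:**
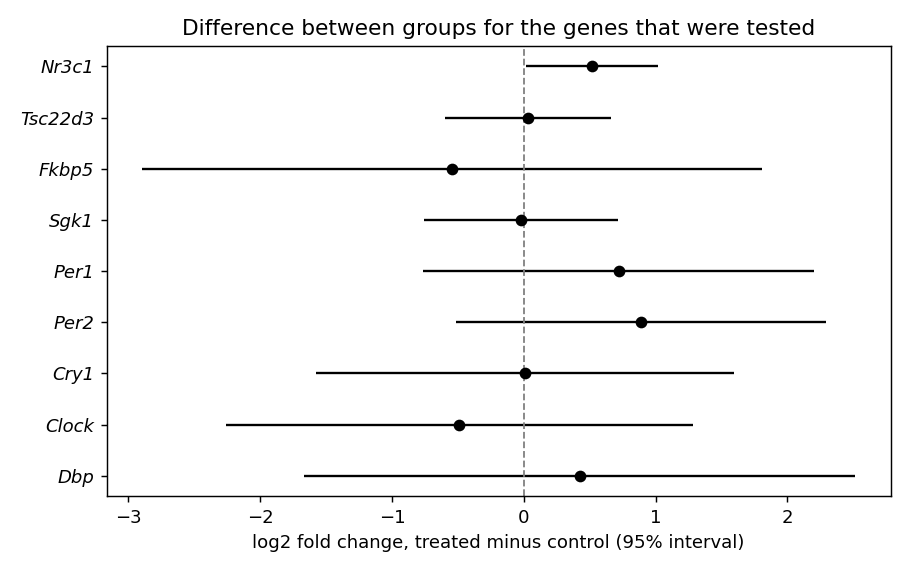
Log2 fold change (treated minus control, horizontal axis) of each of the 9 tested genes (vertical axis), with points for the edgeR estimate and lines for its 95% interval. The interval of Nr3c1 ran from 0.016 to 1.02 before adjustment over all genes, and those of the other 8 genes crossed 0.

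Set on a common scale of CPM per kilobase of exon, the genes spanned from 417 for Tsc22d3 to 0.319 for Nr1d1 (means of all 11 libraries). Tsc22d3 led, with 294 to 772 CPM per kilobase over the libraries. Sgk1 followed at a mean of 74.5, with 40.1 to 132, and Nr3c1 at 22.3, with 13.2 to 39.4. The ranges of these 3 genes over the libraries did not overlap each other, nor that of any clock gene. Below them came Cry1 at 6.84, Per2 at 5.44, Per1 at 3.55, Dbp at 1.23, Clock at 1.08 and Fkbp5 at 0.493 CPM per kilobase. The ranges of neighbours among these 6 overlapped, so their order is within the spread between libraries. Lengths are unions of all annotated exons, so a gene expressed from short transcripts is underrated on this scale.

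**Figure D2:**
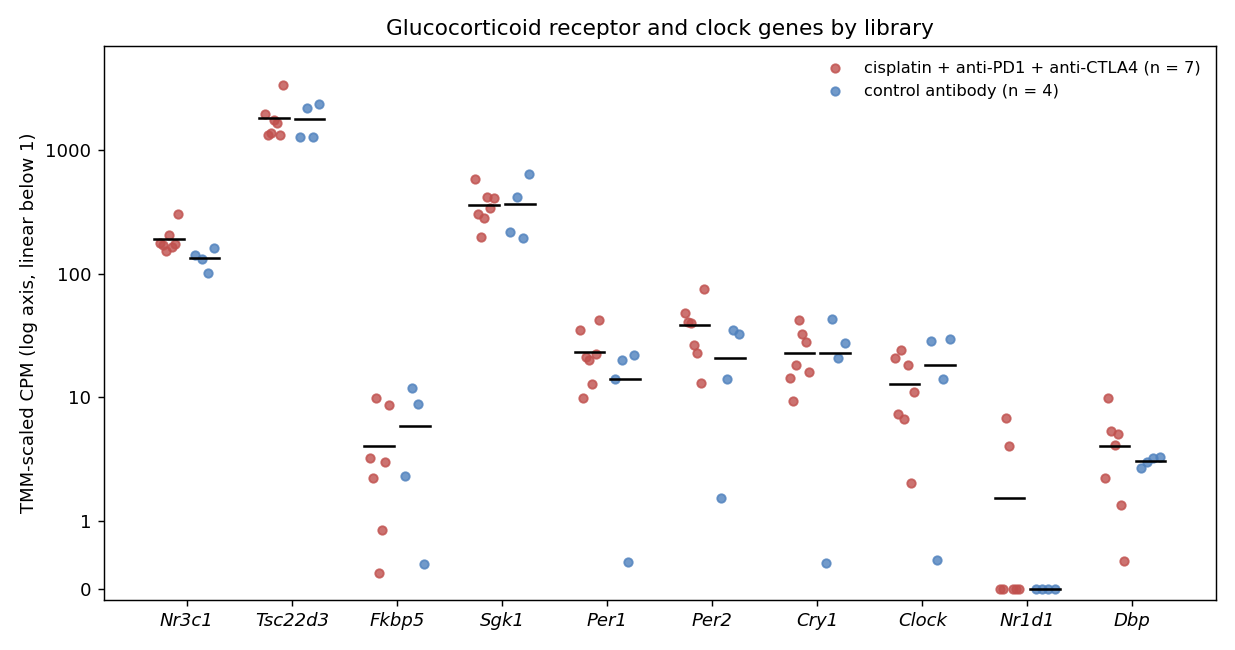
TMM-scaled CPM (vertical axis, log scale that is linear below 1) of each gene (horizontal axis), with 1 point per library, red for treated (n = 7) and blue for control (n = 4), and black bars at group means. Tsc22d3, Sgk1 and Nr3c1 lie above 100 CPM in every library, and Fkbp5 and Dbp below 12.

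Nr3c1 (ENSMUSG00000024431, chromosome 18, 39410545 to 39519421, GRCm38) encodes the receptor itself. Treated 1 to treated 7 had 176.5, 170.9, 152, 206.3, 163.8, 174.2 and 303.1 CPM. The controls, 1 to 4, had 142.8, 131.5, 101.4 and 162.5 CPM. The groups overlapped by 1 library each way, since 6 of 7 treated libraries were above the highest control and only treated 3 was below control 4. The means were 192 ± 51.6 CPM (SD, n = 7) and 135 ± 25.6 CPM (SD, n = 4), a log2 fold change of 0.52 ± 0.23 (SE; unadjusted p = 0.044, adjusted p = 0.719, edgeR). The difference did not pass the test over all genes. Its log2 fold change stayed between 0.37 and 0.63 in all 21 alternative fits, and it was 0.52 without control 3 and control 4. Nr3c1 was also the steadiest of the 10 genes, with a coefficient of variation over the 11 libraries of 0.300, against a median of 0.342 for the 3001 tested genes with means from 50 to 500 CPM.

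Tsc22d3 (ENSMUSG00000031431, chromosome X, 140539528 to 140600659) encodes GILZ, a leucine zipper protein induced by glucocorticoids that restrains inflammatory transcription factors. It was the most abundant gene of the set. Treated 1 to treated 7 had 1965, 1334, 1381, 1752, 1663, 1335 and 3353 CPM. The controls, 1 to 4, had 1275, 2194, 1288 and 2379 CPM. Apart from treated 7, the highest library, the treated values lay inside the wider control range. Control 2 and control 4 were above these treated values, and control 1 and control 3 were below them. The means were 1826 ± 715 (SD, n = 7) and 1784 ± 585 CPM (SD, n = 4), and the log2 fold change was 0.03 with a 95% interval from -0.60 to 0.67 (adjusted p = 0.992, edgeR). Its sign turned in 5 of 21 alternative fits, among them the one without treated 7, which gave -0.18.

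Sgk1 (ENSMUSG00000019970, chromosome 10, 21882184 to 21999903) encodes a kinase of ion transport and cell survival whose transcript glucocorticoids raise. The treated libraries, 1 to 7, had 583.7, 304.5, 198.1, 284.8, 414.9, 343.4 and 414.5 CPM. Control 1 to control 4 had 217.4, 415, 196.7 and 647.1 CPM. Control 4 was the highest library and control 3 the lowest, so the control group enclosed the treated one. The means of 363 ± 123 (SD, n = 7) and 369 ± 210 CPM (SD, n = 4) gave a log2 fold change of -0.02 with a 95% interval from -0.76 to 0.72 (adjusted p = 0.997, edgeR). The sign turned in 11 of 21 alternative fits. The value was 0.42 without control 4 and 0.24 without control 3 and control 4.

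Fkbp5 (ENSMUSG00000024222, chromosome 17, 28399094 to 28517527) encodes FKBP51, a co-chaperone that is induced by the receptor and lowers its affinity for hormone. It was scarce, at 3.21, 2.21, 9.86, 0.236, 0.870, 3.02 and 8.64 CPM in treated 1 to treated 7. The controls, 1 to 4, had 2.28, 11.9, 8.82 and 0.364 CPM. In treated 4 and control 4 this was 2 reads and 1 read. Each group held libraries near 10 CPM and others below 1 CPM. The log2 fold change was -0.54 with a 95% interval from -2.90 to 1.81 (adjusted p = 0.961, edgeR), and it was 0.08 without control 2.

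Fkbp5 thus did not follow Tsc22d3 and Sgk1 in every library. It was low in control 4 (0.364 CPM, 1 read), where Sgk1 and, among the controls, Tsc22d3 were at their highest. But Fkbp5 was itself highest in control 2 (11.9 CPM), and it had 8.64 CPM in treated 7, the highest library of Tsc22d3. For both Tsc22d3 and Sgk1, control 4 and control 2 were the highest controls. Their relation over the libraries was not tested, since Sgk1 was in none of the pairs that follow. Of 7 pairs of genes compared across libraries on log2(CPM + 1), none passed at an adjusted p of 0.05. Nr3c1 and Tsc22d3 had a Pearson r of 0.631 over 11 libraries (permutation p = 0.041, adjusted p = 0.255 over the 7 pairs) and a Spearman rho of 0.445 (permutation p = 0.175, adjusted p = 0.3). Within the 7 treated libraries r was 0.899 (exact permutation p = 0.0288, adjusted p = 0.101) and rho 0.679 (exact permutation p = 0.11, adjusted p = 0.256). Without treated 7 and control 3, the libraries farthest from the median of Nr3c1, r over the rest was -0.0493, so the relation rests on those libraries. Within the treated group r was 0.313 without treated 4 and treated 7. Tsc22d3 and Per1 had an r of 0.568 (permutation p = 0.0728, adjusted p = 0.255) and a rho of 0.682 (permutation p = 0.0255, adjusted p = 0.141) over 11 libraries. Within the treated group r was 0.721 (exact permutation p = 0.0641, adjusted p = 0.15) and rho 0.679 (exact permutation p = 0.11, adjusted p = 0.256). Without treated 7 and control 4 r over the rest was 0.482, and within the treated group without treated 2 and treated 7 it was 0.282. Tsc22d3 and Fkbp5 had an r of 0.0633 (permutation p = 0.857, adjusted p = 0.857) and a rho of 0.00909 (permutation p = 0.99, adjusted p = 0.99), and 0.00947 was left without treated 7 and control 4. With CPM of the unscaled library total the first 2 pairs did pass over all libraries. Then r was 0.757 (permutation test, adjusted p = 0.0456) for Nr3c1 and Tsc22d3 and 0.832 (adjusted p = 0.00924) for Tsc22d3 and Per1. That scale leaves out the TMM factors, which were lowest in control 3 (0.671) and control 4 (0.703). Within the treated group it gave 0.845 and 0.716 (exact permutation test, adjusted p = 0.11 and 0.148), so neither pair passed there. Nr3c1 and Fkbp5 had an r of -0.202 (permutation p = 0.571, adjusted p = 0.799) and a rho of -0.409 (permutation p = 0.214, adjusted p = 0.3), and r was -0.669 without treated 7 and control 3. Within the treated group r was 0.201 for this pair (exact permutation p = 0.688, adjusted p = 0.688) and 0.28 for Tsc22d3 and Fkbp5 (exact permutation p = 0.563, adjusted p = 0.657). Without the 2 farthest treated libraries these were -0.527 and -0.498. The control group of 4 is too small for a value of its own.

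**Figure D3:**
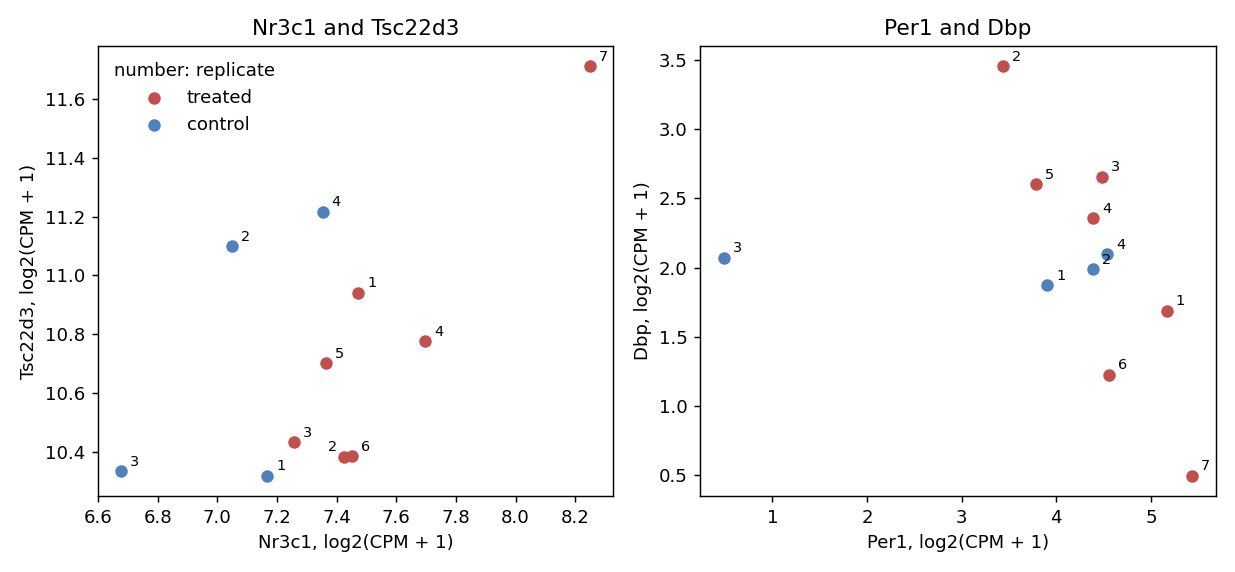
Log2(CPM + 1) of Nr3c1 against Tsc22d3 (left) and of Per1 against Dbp (right), with 1 point per library, red for treated and blue for control, numbered by replicate. Treated 7 is highest in Nr3c1, Tsc22d3 and Per1 and lowest in Dbp, and control 3 is lowest in Nr3c1 and Per1.

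Of the clock genes, the repressors come first. Per1 (ENSMUSG00000020893, chromosome 11, 69095217 to 69109960) encodes a PER repressor. Treated 1 to treated 7 had 34.95, 9.79, 21.3, 19.94, 12.75, 22.6 and 42.2 CPM. Control 1 to control 4 had 13.95, 19.95, 0.401 and 22.2 CPM. Control 3 held 1 read, and the other 3 controls lay within the treated range. The means were 23.4 ± 11.6 (SD, n = 7) and 14.1 ± 9.78 CPM (SD, n = 4), a log2 fold change of 0.72 with a 95% interval from -0.76 to 2.205 (adjusted p = 0.921, edgeR). It was 0.36 without control 3 and 0.50 without control 3 and control 4.

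Per2 (ENSMUSG00000055866, chromosome 1, 91415982 to 91459324), the other PER repressor of this set, had 48.4, 40.4, 39.9, 26.7, 22.9, 13.1 and 75.6 CPM in treated 1 to treated 7. Its controls 1 to 4 had 1.522, 14.15, 35.3 and 32.35 CPM. Of the treated libraries, 4 of 7 were above the highest control, and only control 1 was below every treated library. The means were 38.1 ± 20.4 (SD, n = 7) and 20.8 ± 15.9 CPM (SD, n = 4), a log2 fold change of 0.89 with a 95% interval from -0.52 to 2.29 (adjusted p = 0.873, edgeR). This was the highest estimate of the set, and it did not pass. It was 0.49 without control 1 and 2.32 without control 3 and control 4 (adjusted p = 0.452, edgeR).

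Cry1 (ENSMUSG00000020038, chromosome 10, 85131700 to 85185064) encodes a cryptochrome, the partner of the PER proteins in repression. Treated 1 to treated 7 had 14.45, 9.32, 18.1, 42.2, 32.3, 27.8 and 16.05 CPM. Control 1 to control 4 had 0.3805, 42.7, 20.8 and 27.3 CPM. Control 1 held 3 reads, while control 2 was the highest of all libraries. The log2 fold change was 0.01 with a 95% interval from -1.58 to 1.59 (adjusted p = 0.999, edgeR), and its sign turned in 6 of 21 alternative fits. These fits ran from -0.66 with the identifier letters as a covariate to 1.79 with limma-voom and sample weights. It was -0.40 without control 1 and 0.52 without control 2.

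Clock (ENSMUSG00000029238, chromosome 5, 76209868 to 76304792) encodes the activator of the loop. The treated libraries, 1 to 7, had 20.99, 7.27, 23.99, 6.72, 18.1, 2.01 and 10.97 CPM. Control 1 to control 4 had 28.5, 0.4245, 14.02 and 29.45 CPM. Control 1 and control 4 were above every treated library, and control 2, with 3 reads, was below every treated library. The means were 12.9 ± 8.24 (SD, n = 7) and 18.1 ± 13.7 CPM (SD, n = 4). The log2 fold change was -0.49 with a 95% interval from -2.26 to 1.28 (adjusted p = 0.952, edgeR), and its sign turned in 3 of 21 alternative fits.

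Each near-absence among Per1, Cry1 and Clock thus fell in a different control library (control 3 for Per1, control 1 for Cry1 and control 2 for Clock), and each of these libraries held the other 2 genes at 13.95 CPM or more. Per2 had its lowest value, 12 reads, in control 1, the library where Cry1 was near absent. Among the 4472 tested genes with means from 10 to 50 CPM, 26.2% had a library under 1 CPM, and of the 4 clock genes in that range 3 had one. The coefficients of variation of these 4 genes, from 0.572 for Per1 to 0.692 for Clock, lay between the median of 0.531 and the upper quartile of 0.693 for genes of that range. Control 3, where Per1 was near absent, and control 4 had the shallowest libraries, with 3733156 and 3923906 counts. Control 1 and control 2, where Cry1 and Clock were near absent, held 6721060 and 6471344 counts. The part of depth in these values was not tested.

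**Figure D4:**
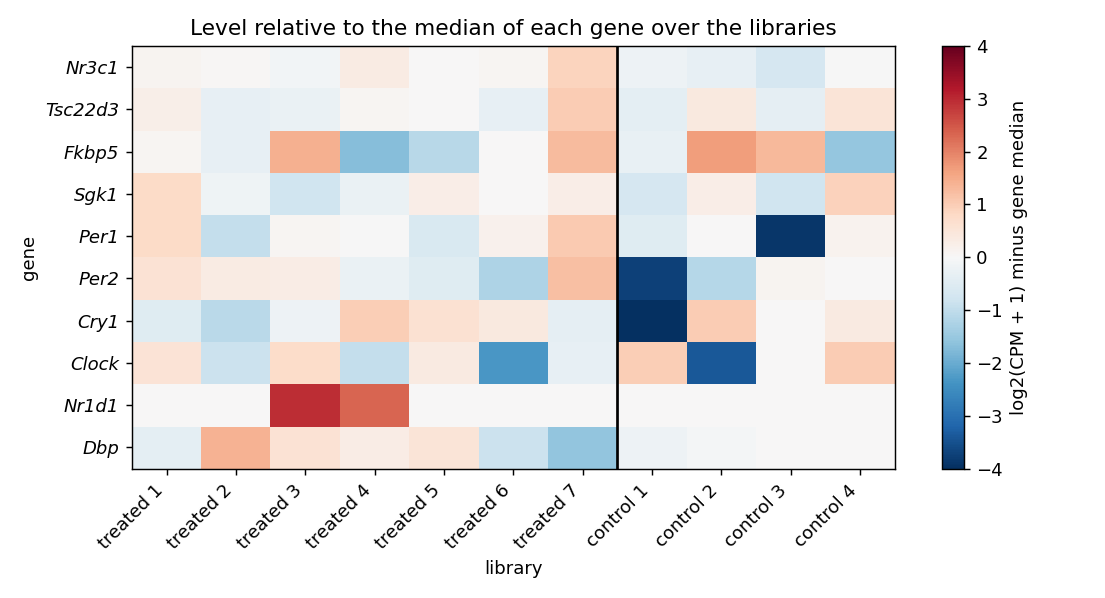
Log2(CPM + 1) of each gene (rows) in each library (columns, treated left of the line, control right) minus the median of the gene over the 11 libraries, with blue below and red above the median. Dark blue cells mark Per1 in control 3, Per2 and Cry1 in control 1 and Clock in control 2, and Nr1d1 departs from 0 in treated 3 and treated 4.

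Nr1d1 (ENSMUSG00000020889, chromosome 11, 98767932 to 98775333) encodes REV-ERB alpha, a nuclear receptor that represses Arntl. It had 46 reads in treated 3 and 34 reads in treated 4, or 6.77 and 4.01 CPM, and 0 reads in the other 9 libraries, too few for the test. A count of 0 allows up to 3 reads, which is 0.37 to 0.502 CPM in the other treated libraries and 0.38 to 1.2 CPM in the control ones. Both libraries with reads were thus above the limit of every library without. Treated 4 also had the highest sum of basophil and mast cell markers, 445 CPM against 3.31 to 34.9 CPM elsewhere. Treated 3 and treated 4 were also the libraries with the highest summed B cell markers (6070 and 6900 CPM, against 544 to 3370 CPM elsewhere) and T cell markers (489 and 400 CPM, against 33.8 to 192 CPM elsewhere). The part of such cells in the Nr1d1 reads was not tested. Nr1d1 shares 263 exon bases with Thra on the opposite strand, and no source used here gives the strand setting of the counting. Reads in the shared bases cannot be assigned to 1 gene with certainty. Thra had 102 and 127 reads in treated 3 and treated 4 and 221 in treated 2, where Nr1d1 had 0.

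Dbp (ENSMUSG00000059824, chromosome 7, 45705088 to 45710203) encodes a transcription factor that carries the rhythm to output genes through the D-box. Treated 1 to treated 7 had 2.22, 9.95, 5.30, 4.13, 5.07, 1.34 and 0.4115 CPM, the last from 3 reads. Control 1 to control 4 had 2.66, 2.97, 3.205 and 3.27 CPM. The control values lay close together, inside a wider treated range. The means were 4.06 ± 3.20 (SD, n = 7) and 3.03 ± 0.275 CPM (SD, n = 4), and the log2 fold change was 0.42 with a 95% interval from -1.67 to 2.51 (adjusted p = 0.969, edgeR). It was 0.03 without treated 2. Dbp shares 539 exon bases with Sphk2 on the opposite strand, so its counts carry the same uncertainty.

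The pairs of clock genes compared were Per1 and Dbp, Per1 and Per2, and Nr1d1 and Dbp, so Cry1 and Clock were in none. Among these pairs, Per1 and Dbp had the relation of largest size within the treated group, and it was negative. Over the 7 treated libraries Pearson r was -0.873 (exact permutation p = 0.0133, adjusted p = 0.0931 over the 7 pairs) and Spearman rho -0.857 (exact permutation p = 0.0238, adjusted p = 0.167). Without treated 2 and treated 7 r was -0.59, and over all 11 libraries it was -0.362 (permutation p = 0.255, adjusted p = 0.595). The Spearman coefficient over all libraries was -0.636 (permutation p = 0.0403, adjusted p = 0.141), and r was -0.683 without treated 7 and control 3. Per1 and Per2 had an r of 0.438 in the treated group (exact permutation p = 0.321, adjusted p = 0.562) and of 0.0792 over all libraries (permutation p = 0.771, adjusted p = 0.857). The Spearman coefficients were 0.429 (exact permutation p = 0.354, adjusted p = 0.619) and 0.282 (permutation p = 0.4, adjusted p = 0.467). Without the 2 libraries farthest from the median of Per1, r was 0.461 in the treated group and 0.28 over all libraries. Nr1d1 and Dbp had an r of 0.303 over all libraries (permutation p = 0.348, adjusted p = 0.608; rho 0.458, permutation p = 0.182, adjusted p = 0.3). It rests on the 2 libraries with Nr1d1 reads, and without them no r can be computed.

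Genes around the receptor were described from a list of 16 receptor partners. These were chaperones, cofactors, the related steroid receptor gene Nr3c2 and the enzyme Hsd11b1, which regenerates active hormone. All 16 were tested and 0 passed. Fold changes were above 0 for 14 and below 0 for 2, with a median log2 fold change of 0.448 against 0.0278 over all genes tested, where 51.8% were above 0. With the letters of the sample identifiers as a covariate, which leaves treated 1 to be set against the controls, the median was -0.0434. An unadjusted p under 0.05 was found for 3 of 16, against 6.82% of all genes tested.

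These 3 genes were Hsp90ab1, Hspa8 and Ep300. Hsp90ab1, the constitutive HSP90 that holds the receptor ready for hormone, had 298.5, 313.2, 708.7, 589.2, 379.3, 519.4 and 405.6 CPM in treated 1 to treated 7. Its controls 1 to 4 had 229.1, 306.8, 298.5 and 198.1 CPM. Treated 1 was the only treated library below the highest control. The log2 fold change was 0.83 ± 0.27 (SE; adjusted p = 0.626, edgeR). Hspa8, the constitutive HSP70, had means of 480 ± 156 (SD, n = 7) and 295 ± 80.3 CPM (SD, n = 4; adjusted p = 0.663, edgeR). Ep300, a histone acetyltransferase and coactivator, had means of 84.0 ± 26.5 (SD, n = 7) and 45.55 ± 22.5 CPM (SD, n = 4; adjusted p = 0.637, edgeR). The corepressor gene Ncor1, among the 3 of this list with the highest CPM, had means of 293 ± 118 and 205 ± 74.5 CPM. With the identifier letters as a covariate the log2 fold change of Hsp90ab1 was 0.21, that of Hspa8 0.12 and that of Ep300 1.56, against 0.88 without it.

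Of 19 other genes that glucocorticoids induce in various cells, 14 were tested, 7 were above and 7 below 0, and 0 passed, with a median log2 fold change of -0.00212. Dusp1, a phosphatase that ends MAP kinase signalling, had means of 3111 ± 1923 (SD, n = 7) and 2974 ± 1432 CPM (SD, n = 4) in the treated and the control group. Anxa1, an anti-inflammatory phospholipid-binding protein, had 1746 ± 609 and 1659 ± 747 CPM, and Rgs2, a regulator of G protein signalling, at 1151 ± 280 and 1562 ± 525 CPM. The signs of Dusp1 and Anxa1 each turned in 6 of 21 alternative fits. Without control 3 and control 4 the median of this list was 1.17, and in that fit too 0 of its genes passed.

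Of 24 other clock genes, 16 were tested, 10 were above and 6 below 0, and 0 passed, with a median log2 fold change of 0.231. Arntl, which encodes the partner of CLOCK, had means of 23.7 ± 10.4 (SD, n = 7) and 24.5 ± 13.4 CPM (SD, n = 4). It is outside the rule for naming genes and was chosen after its values were seen, as Clock's partner. The 3 with the highest CPM were Bhlhe40, a repressor that competes for the E-box, at 468 ± 135 and 488 ± 313 CPM, and the kinase genes Gsk3b at 238 ± 42.8 and 167 ± 65.6 CPM and Csnk1a1 at 159 ± 24.1 and 178 ± 45.9 CPM. The sign of Bhlhe40 turned in 4 of 21 alternative fits. Usp2, a deubiquitinase that acts on clock proteins, was the 1 gene with an unadjusted p under 0.05 (adjusted p = 0.629, edgeR). It had reads in 6 of 7 treated libraries, at up to 4.95 CPM, and in control 1 only of the controls, at 0.254 CPM. The values of control 1 and of treated 2 (0.316 CPM) were below the 0.38 and 0.474 CPM that a count of 0 allows in these libraries. That of treated 1 (0.741 CPM) was below the 1.2 and 1.09 CPM it allows in control 3 and control 4. Rorb and Hlf had 0 counts in all 11 libraries. Rora, whose product opposes REV-ERB alpha, had counts in 2 libraries.

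The genes whose levels most resembled those of 3 members were sought among 7745 tested genes with a mean of 10 CPM or more, by Pearson r of log2(CPM + 1) over the 11 libraries. For Nr3c1 they were Atxn7l1 (r = 0.907), Spcs3 (0.884) and Elf1 (0.881). For Tsc22d3 they were Vps36 (0.937), Cast (0.918) and Dennd2a (0.913), and for Per1 they were Nuak2 (0.947), Kcnab2 (0.945) and Ints6 (0.942). These values are the highest of 7745 and share library depth and composition.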

How the data were processed

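The deposited values are unnormalized whole-number counts for each Ensembl gene in 1 table of 11 libraries. The submitters' processing notes name build GRCm38 and the tools SAMtools 1.15.1, HISAT2 2.10 and bcl2fastq 2.20.0.422. No source used here names the read counter, its strand setting or the annotation release, so these steps are unknown. One row that names no gene held 0 counts and was left out. Groups and replicate numbers come from the sample titles. Libraries come from different mice. The lowest chi-square per gene between 2 libraries was 55.2, so none was a duplicate.

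The test was that of edgeR 4.0.16 under R 4.3.3 (quasi-likelihood, robust dispersions, TMM, filterByExpr, Benjamini-Hochberg over 11389 genes, threshold 0.05), after a check on simulated data. That check recovered 5 of 50 genes simulated with a log2 fold change of 1 and 38 of 50 with 2. With 3 and with 4 it recovered 45 of 50 each, and it called 5 unchanged genes. All 4 sizes were simulated together, in genes above a minimum mean CPM that Fkbp5, Clock and Dbp did not reach. DESeq2 1.42.0 and limma 3.58.1 were alternatives. Standard errors and intervals come from the quasi-likelihood F statistic. Relations used log2(CPM + 1) with 100000 permutations, or all 5040 for 7 libraries, in Python 3.11.15. Marker sums and haemoglobin shares use the library total. Exon lengths come from GENCODE M21, whose coordinates equal those of the table for all 10 genes, and 55140 of 55486 identifiers matched. Limits cover counting error only, since reads had no molecular identifiers.

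The members and lists were chosen with earlier results of these data known. The rule named all members and, of each list, the 3 genes with the highest mean CPM, those with an unadjusted p under 0.05 and those whose groups did not overlap. It also named the 3 genes most like Nr3c1, Tsc22d3 and Per1.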

Additional observations from a re-analysis of the deposited data

Results flagged for a closer look

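In treated 7, Nr3c1 stood at 303.1 CPM, apart from the other treated libraries, whose next highest was 206.3 CPM, with a gap of 0.641 of the group's range. Tsc22d3 stood at 3353 CPM in the same library, against 1965 CPM in the next, with a gap of 0.688 of the range. Treated 7 also had the lowest haemoglobin share of the treated group (1.16%) and the lowest monocyte and macrophage marker sum (2220 CPM), and the part of these in both values was not tested. Usp2 was at 0.2537 CPM in control 1 and at 0 in the other controls, a gap of the whole range at a level below the 0.38 CPM that 3 reads give in that library. Gaps were looked for in 41 groups of values, with a critical value made to set apart about 1 group in 20 by chance if values are normally distributed. That rate was not tested on these values.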

How the results depend on the processing

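No member passed in any of the 22 alternative settings, nor did any gene of the 3 lists. Over the whole table DESeq2 called 60 genes higher and 22 lower, against 0 in edgeR and in each other setting. The log2 fold changes of Nr3c1 (0.37 to 0.631), Per1 (0.36 to 1.3) and Per2 (0.495 to 2.32) kept their sign in 21 settings each. The cause of the shifts below was not tested.

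Medians that moved were -0.0434 for receptor partners with identifier letters as covariate. For other glucocorticoid-induced genes they were 0.452 with limma-voom, 0.351 with detected genes as covariate, -0.335 with letters and 1.17 without control 3 and control 4. With CPM of the library total, r over all libraries was 0.757 for Nr3c1 and Tsc22d3 and 0.832 for Tsc22d3 and Per1, both past the threshold. Within the treated group these were 0.845 and 0.716, and neither passed. Log2 fold changes of the opposite sign were as follows. With limma-voom they were -0.0309 for Tsc22d3, 0.0666 for Sgk1, 0.463 for Clock, -0.145 for Dbp and -0.11 for Dusp1. With letters they were 0.662 for Sgk1, -0.657 for Cry1, 0.215 for Clock, -0.441 for Dbp, -0.00126 for Dusp1, -0.267 for Anxa1 and 0.362 for Bhlhe40. Sgk1 gave 0.00641 with no filter, 0.209 with detected genes and 0.237 without control 3 and control 4, where Dusp1 gave -0.11. Cry1 gave -0.00369 with upper-quartile scaling.

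Leaving out 1 library at a time gave ranges of -0.183 to 0.224 for Tsc22d3, -0.944 to 0.0841 for Fkbp5, -0.204 to 0.417 for Sgk1, -0.403 to 0.522 for Cry1, -0.273 to 0.279 for Dusp1, -0.1 to 0.433 for Anxa1 and -0.336 to 0.436 for Bhlhe40. Same-numbered libraries did not deviate together (r from -0.11 to 0.0224 over 4 pairs), and the main fit used no pairing. These few values cannot exclude a pairing, since control 3 and control 4 stood apart from the other controls in composition. With a replicate block 0 genes were called, and the block turned Tsc22d3 to -0.11, Clock to 0.346, Dusp1 to -0.291, Anxa1 to -0.067 and Bhlhe40 to 0.0971. Dbp under the stricter filter, and Usp2 under it and in 4 fits that left out a treated library, fell below the filter and gave no value, and Nr1d1 was given no fold change in any setting. Of the members, Fkbp5, Per1, Cry1, Clock, Nr1d1 and Dbp each had a library at 3 reads or fewer, where counting error is large.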
